A study of Mus musculus with 4 samples.

Results

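Interferon-stimulated genes were followed in CD4+ T cells that had or had not switched on Il10 a day after antigen. The members were 57 named interferon-induced mouse genes, and 56 of them appeared among the 9546 symbols of the deposited rlog table. The 57th, Oas1a, a 2′-5′-oligoadenylate synthetase, had 0 counts in N1 and N2 and 5 and 3 counts in P1 and P2, the libraries described next, and was below the count filter. The 56 members were divided by gene family, without use of their values, into 15 GTPases (8 guanylate-binding proteins, GBPs, and 7 immunity-related GTPases, IRGs) and 41 classical type I interferon response genes.

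All libraries came from the spleens of Tg4 Nr4a3-Tocky Il10-EGFP mice given 4 mg/kg of [4Y]-MBP peptide under the skin and killed 24 h later. Tg4 mice carry a transgenic T cell receptor for myelin basic protein peptide, and in Nr4a3-Tocky mice the fluorescent Timer protein is driven by Nr4a3, a gene switched on by T cell receptor signalling. CD4+ Timer+ T cells were sorted by the Il10 reporter into Il10-EGFP+ (libraries P1 and P2) and Il10-EGFP- (N1 and N2), 2 libraries each. Both populations therefore shared genotype, peptide, dose, time and the gate on Timer, and were separated by the reporter. No untreated mice were sequenced with them, so every value below is a difference between antigen-activated populations and not a response to the peptide, and the reporter marks Il10 transcription in a sorted gate, not a cell lineage.

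Interferons signal through receptor pairs, Ifnar1 with Ifnar2 for type I interferons and Ifngr1 with Ifngr2 for IFNγ. Both activate Janus kinases and STAT transcription factors: complexes that contain STAT2 and IRF9 bind the interferon-stimulated response element (ISRE), and STAT dimers bind the gamma-activated sequence (GAS). GBPs and IRGs are GTPases that coat the membranes around intracellular pathogens and are best known as targets of IFNγ, whereas the classical type I genes encode sensors of nucleic acids, antiviral effectors and the ISG15 conjugation system. Most of these genes answer to both kinds of interferon.

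Promoter sequences are shown for 7 members, chosen to cover both families and members with large and small differences in the results that follow: Gbp7 and Gbp3, which lie side by side; Igtp, an IRG; Ifi203, a member of the Ifi200 family; Ifit1 and Ifit3, which also lie side by side; and Isg15. Each line holds the 170 bases before the start of transcription, 5′ to 3′ on the transcribed strand, from RefSeq on GRCm38.p6. Capitals mark matches to the ISRE core, GAAANNGAAA or its reverse complement TTTCNNTTTC, and to the palindromic GAS, TTCNNNGAA, where N is any base. Where a gene had several promoter windows, the one with the most ISRE cores is shown. Gbp3 and Ifi203 each had another window without a match. All 7 genes shown held an ISRE core, which 20 of the 39 members with a window did. The windows of Samhd1 and Oasl2, not shown, held none. The stretches were chr3:142530166-142530335 (plus strand), chr3:142559874-142560043 (plus strand), chr11:58199386-58199555 (plus strand), chr1:173942493-173942662 (minus strand), chr19:34640719-34640888 (plus strand), chr19:34583359-34583528 (plus strand) and chr4:156200819-156200988 (minus strand).
Gbp7: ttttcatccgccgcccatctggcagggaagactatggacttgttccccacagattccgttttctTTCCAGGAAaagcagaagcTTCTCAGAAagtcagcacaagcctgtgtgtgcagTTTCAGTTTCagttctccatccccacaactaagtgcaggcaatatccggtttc
Gbp3: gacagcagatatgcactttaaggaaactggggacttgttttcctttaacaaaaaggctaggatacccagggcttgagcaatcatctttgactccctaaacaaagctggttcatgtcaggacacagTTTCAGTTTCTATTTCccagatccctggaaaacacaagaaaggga
Igtp: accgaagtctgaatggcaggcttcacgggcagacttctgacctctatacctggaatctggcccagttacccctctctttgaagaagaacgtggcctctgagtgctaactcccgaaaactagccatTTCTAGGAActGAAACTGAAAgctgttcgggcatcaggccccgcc
Ifi203: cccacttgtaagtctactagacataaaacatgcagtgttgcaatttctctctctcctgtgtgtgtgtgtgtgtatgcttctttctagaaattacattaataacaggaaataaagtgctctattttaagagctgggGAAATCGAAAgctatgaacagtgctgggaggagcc
Ifit1: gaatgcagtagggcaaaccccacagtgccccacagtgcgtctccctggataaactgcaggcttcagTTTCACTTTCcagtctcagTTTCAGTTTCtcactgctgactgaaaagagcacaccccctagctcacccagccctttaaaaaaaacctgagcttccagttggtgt
Ifit3: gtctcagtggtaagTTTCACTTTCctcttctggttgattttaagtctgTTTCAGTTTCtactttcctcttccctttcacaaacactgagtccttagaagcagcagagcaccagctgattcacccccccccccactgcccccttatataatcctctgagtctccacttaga
Isg15: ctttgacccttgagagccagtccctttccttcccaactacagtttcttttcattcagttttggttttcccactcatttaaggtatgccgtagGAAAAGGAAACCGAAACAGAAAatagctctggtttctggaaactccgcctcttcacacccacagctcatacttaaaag

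Gbp7 held an ISRE core beginning 53 bases before the start, with GAS matches beginning 87 and 106 bases before it. In Igtp the GAS match at 45 bases and the ISRE core at 34 bases stood next to each other. Gbp3 had a pair of ISRE cores that shared 4 bases, Isg15 had 3 such overlapping cores, Ifit1 and Ifit3 each had a pair of separate ones, and Ifi203 had 1, at 35 bases. For Gbp7 and Ifit3 the bases after the RefSeq start were not found in a GENCODE transcript of the gene, so the exact start is uncertain there.

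Over all members, 39 of 56 had at least 1 window in the RefSeq promoter table (250 bases before to 50 after the start, 54 windows), and 17 had none. On both strands, an ISRE core was present in 21 of the 54 windows (38.9%) and a GAS match in 13 of 54 (24.1%), whereas 3.44% of all 32851 promoter windows held an ISRE core and 8.30% a GAS match. Counted by gene, 20 of the 39 members held an ISRE core and 13 of 39 a GAS match, with 3.99% and 9.55% over all genes in the table. Among the GBP and IRG genes, 9 of 10 held an ISRE core and 6 of 10 a GAS match. Among the classical genes the counts were 11 of 29 and 7 of 29. An ISRE core was held by 3 of the 5 genes with a window that passed the expression test described next and by 17 of the 34 that did not, so the motif was found in both. Matches of the ISRE core and GAS overlapped in Bst2 and Shisa5. A match is a stretch of letters and says nothing about binding of a factor.

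**Figure D1:**
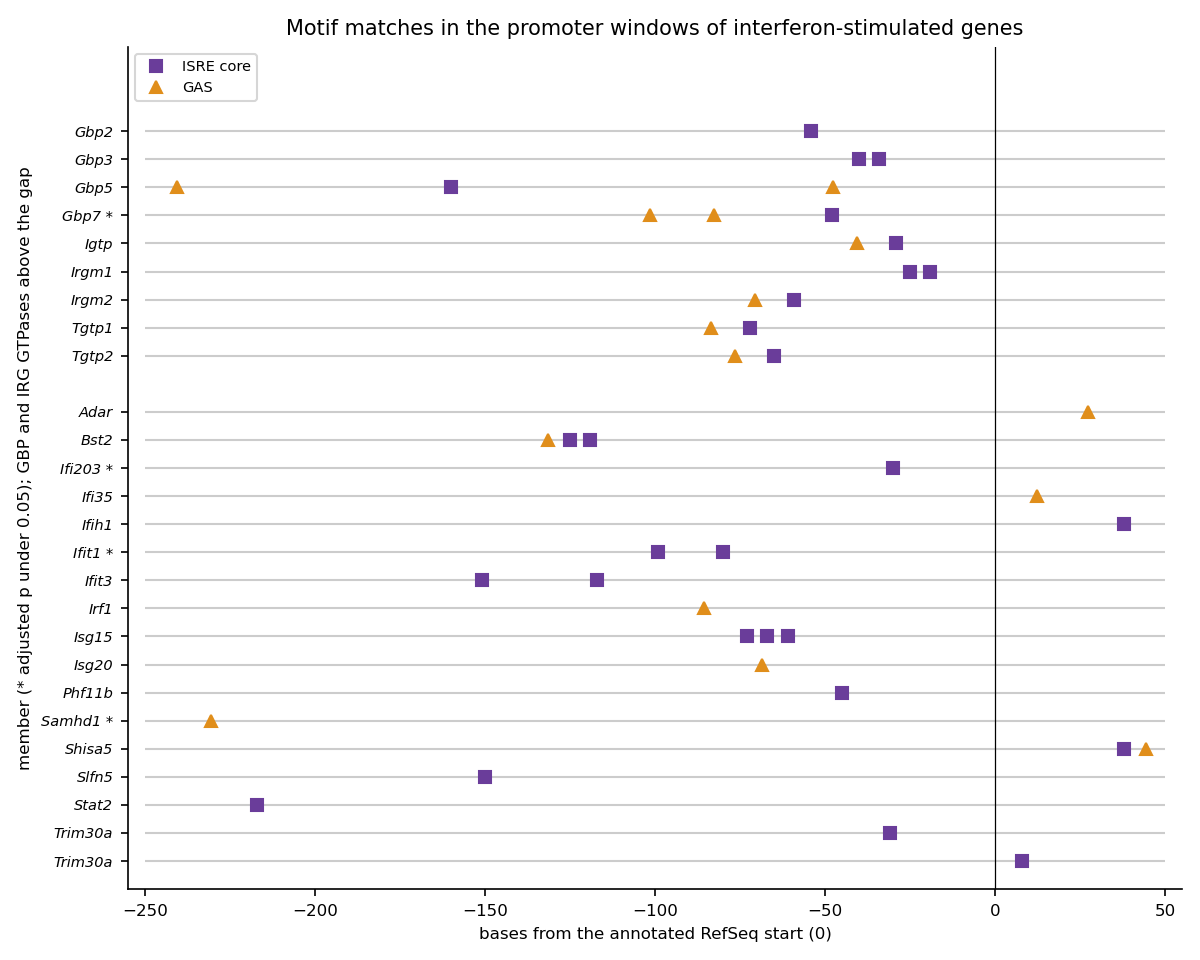
Position of each ISRE core (squares) and GAS match (triangles) in bases from the annotated RefSeq start (vertical line), one row per promoter window of a member with at least 1 match; grey lines span the 300-base window and asterisks mark members past the expression threshold. In the rows of the GBP and IRG genes the ISRE cores lie before the start, within 60 bases of it for Gbp2, Gbp3, Gbp7, Igtp and Irgm1.

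The 4 libraries were shallow, with between 644679 and 730330 counts each, so members with few counts carried wide errors. Levels are given as CPM, a gene's counts relative to the library total after trimmed-mean (TMM) scaling, as mean ± SD over the 2 libraries of a population. Differences are log2 fold changes of Il10-EGFP+ over Il10-EGFP- with their SE. They were tested over 9608 genes by the quasi-likelihood test of edgeR, with p-values adjusted after Benjamini and Hochberg (the edgeR adjusted p) and a threshold of 0.05. The submitters describe the libraries as coming from 2 mice, and the p-values measure only the spread between these libraries, which may be technical in part. In bulk RNA, more cells that express a gene and more RNA per cell cannot be told apart.

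Of the 56 members, 8 passed the threshold, all of them higher in Il10-EGFP+ T cells: Gbp7, Ifi203, Zbp1, Samhd1, Ifit1, Oasl2, Ifi204 and Rtp4. None was lower, and 0 members were lower at an unadjusted edgeR p under 0.05, against 21 that were higher. The members' share was 14.3%, where 2.35% of all genes tested were higher and 1.74% were lower. The fold change was above 0 for 49 of 56 members, and their median log2 fold change was 0.43, with a median of 0.000025 over all genes tested. In 34 members P1 and P2 were each higher than N1 and N2, and in 0 members each lower, whereas each of these patterns was seen in 22.3% of all genes tested. The list was chosen with earlier results of these data known, so these shares describe the members and are not an independent test.

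The count of members past the threshold depended on the libraries and the tool. It was 3 without N1, 8 without N2, 5 without P1 and 4 without P2, and DESeq2's Wald test called 4 members where 0.76% of all genes tested were called higher. Gbp7 and Ifi203 passed in each of these fits.

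**Figure D2:**
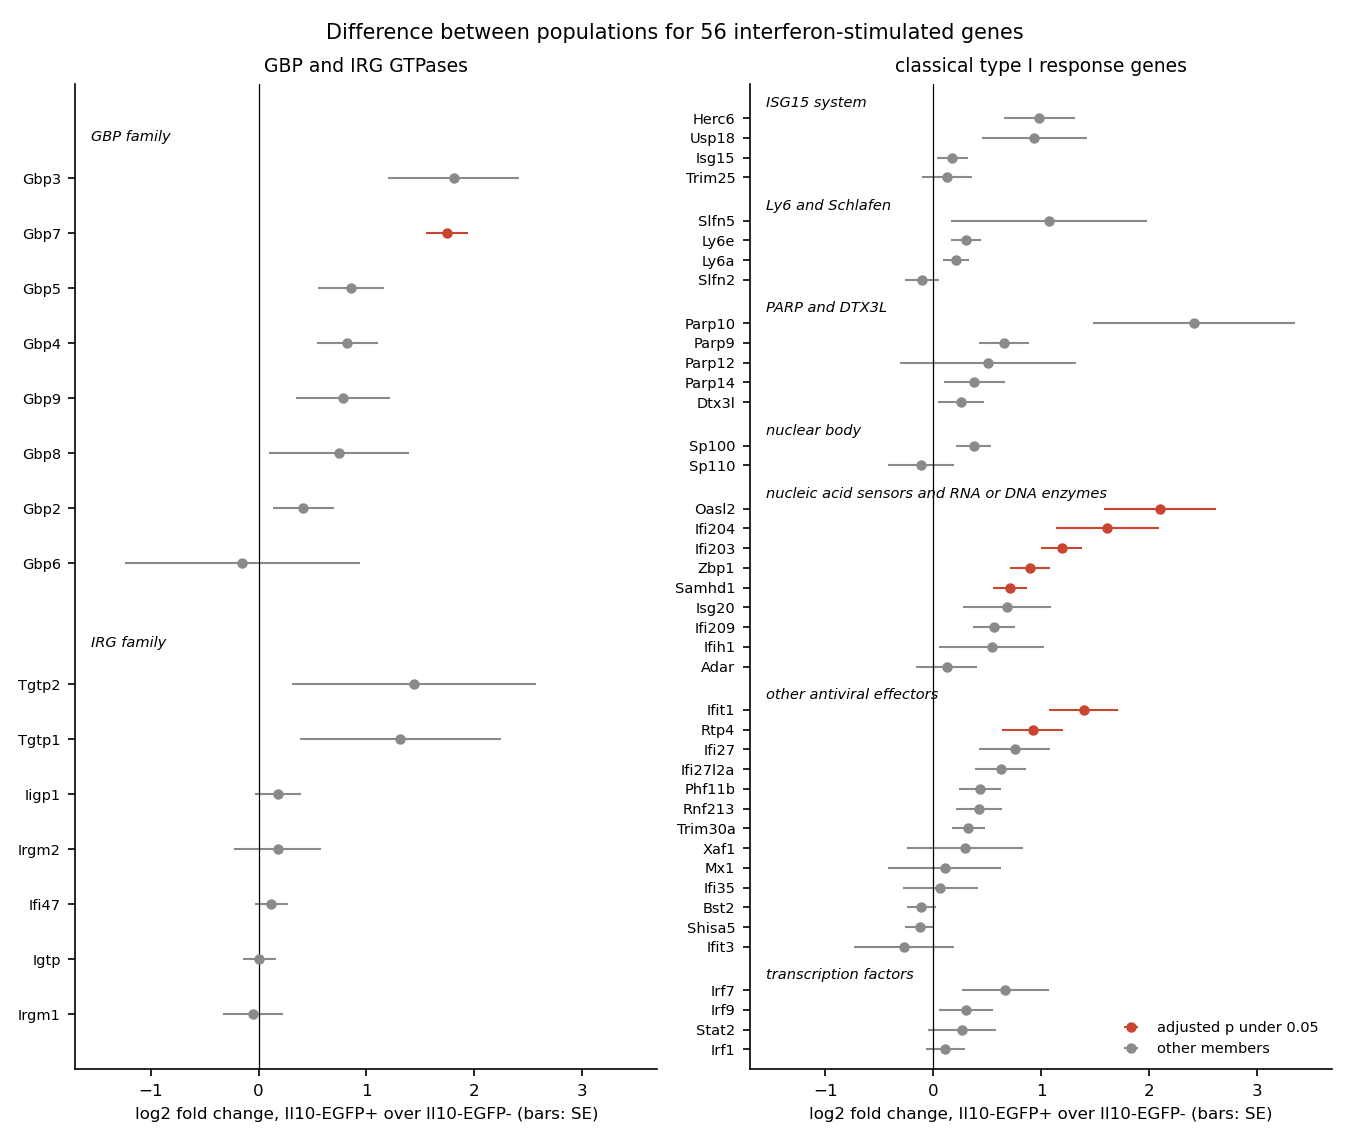
Log2 fold change of Il10-EGFP+ over Il10-EGFP- T cells for each of the 56 members, with the SE as bars, the 15 GBP and IRG GTPases on the left and the 41 classical type I genes on the right, arranged by function. The 8 members with an edgeR adjusted p under 0.05 are red and all lie to the right of 0, while the IRG genes with narrow bars lie close to 0.

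The GTPase families differed in their values. Summed over the 8 GBP genes, the level was 221 and 282 CPM in N1 and N2 and 513 and 593 CPM in P1 and P2, a ratio of 2.20. Of these sums Gbp7 alone gave 74.7 and 83.2 CPM in N1 and N2 and 239 and 290 CPM in P1 and P2. None of the other 7 GBP genes passed the threshold. Over the GBP and IRG genes together the ratio was 1.33, and 1.17 without Gbp7. Summed over the 7 IRG genes it was 786 and 843 CPM in N1 and N2 and 838 and 894 CPM in P1 and P2, a ratio of 1.06, and the populations overlapped. The median log2 fold change was 0.80 for the GBP genes, of which 7 of 8 were above 0, and 0.18 for the IRG genes, of which 6 of 7 were above 0. The difference between the families was not itself tested.

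Gbp7, a guanylate-binding protein of the chromosome 3 cluster (chr3:142530342-142550149, plus strand, GRCm38), changed most clearly of all members. It had 55 counts in N1, 57 in N2, 151 in P1 and 201 in P2. P1 and P2 stood far above N1 and N2, and the gap was larger than the distance between libraries of 1 population. The level rose from 78.9 ± 6.02 CPM to 265 ± 35.9 CPM (SD, n = 2), a 3.36-fold difference (log2 fold change 1.75 ± 0.20, edgeR adjusted p = 7.6e-09). With each library left out in turn the log2 fold change stayed between 1.60 and 1.88.

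The other GBP genes of the same cluster were Gbp5, Gbp3 and Gbp2. Gbp3 had 3 and 6 counts in N1 and N2 and 16 and 14 in P1 and P2. Its groups did not overlap and its fold change was as large as that of Gbp7, with an SE over 3 times as wide (log2 fold change 1.81 ± 0.60, edgeR adjusted p = 0.0774). Of the 1069 stretches of 50 bases at the ends of Gbp3 transcripts, 46 also occur in Gbp7, so some reads of these genes could be assigned to either. Gbp5, a GBP that promotes inflammasome assembly, had 26 and 25 counts in N1 and N2 and 47 and 39 in P1 and P2 (log2 fold change 0.86 ± 0.31, edgeR adjusted p = 0.108). Gbp2, which is recruited to pathogen vacuoles, had 31 and 45 counts against 40 and 55, and its populations overlapped. Together the 4 chromosome 3 genes summed to 156 and 194 CPM in N1 and N2 and 402 and 446 CPM in P1 and P2.

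The GBP genes of chromosome 5 were Gbp4, Gbp6, Gbp8 and Gbp9. Gbp4 had 28 and 36 counts in N1 and N2 and 45 and 61 in P1 and P2, without overlap (log2 fold change 0.82 ± 0.28, edgeR adjusted p = 0.0904), and Gbp9 had 12 and 14 against 15 and 27. These genes are hard to separate. The annotated exons of Gbp4, Gbp8 and Gbp9 overlap on the same strand, and 309 of the 351 stretches of 50 bases at the end of Gbp6 also occur in Gbp10. Gbp6 itself had 6 counts in the Il10-EGFP- and 5 in the Il10-EGFP+ libraries, a ratio of 0.894 with an exact 95% interval from 0.216 to 3.52 for counting error alone. Summed, the 4 genes reached 65.2 and 87.5 CPM in N1 and N2 and 111 and 147 CPM in P1 and P2, so the populations did not overlap, although none of the 4 passed the threshold.

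The IRG genes with many counts had close values in all libraries. Igtp, also called Irgm3, a regulator of the other IRG proteins, had 222 and 215 counts in N1 and N2 and 184 and 226 in P1 and P2, and its level was 308 ± 8.74 CPM in Il10-EGFP- and 309 ± 24.4 CPM in Il10-EGFP+ T cells (log2 fold change 0.01 ± 0.15, edgeR adjusted p = 0.988). Ifi47, also called Irg47, had 221 and 222 counts against 203 and 246 (log2 fold change 0.12 ± 0.15, edgeR adjusted p = 0.797). For both genes the populations overlapped, and the error was far smaller than the fold change of Gbp7.

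The remaining IRG genes included regulators and effectors. Irgm1, another regulatory IRG, had 44 and 45 counts in N1 and N2 and 42 and 38 in P1 and P2. Irgm2, whose exons overlap those of Igtp on the same strand, had a log2 fold change of 0.18 ± 0.40. Iigp1, an effector that disrupts the parasite vacuole, had 72 and 71 counts against 70 and 81 (log2 fold change 0.18 ± 0.22, edgeR adjusted p = 0.783). Tgtp1 and Tgtp2 had the largest IRG fold changes and the fewest counts. All 351 stretches of 50 bases at the end of Tgtp2 also occur in Tgtp1, and the ratio of Tgtp2 counts, 8 against 3, was 2.86 with an exact 95% interval from 0.687 to 16.7.

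**Figure D3:**
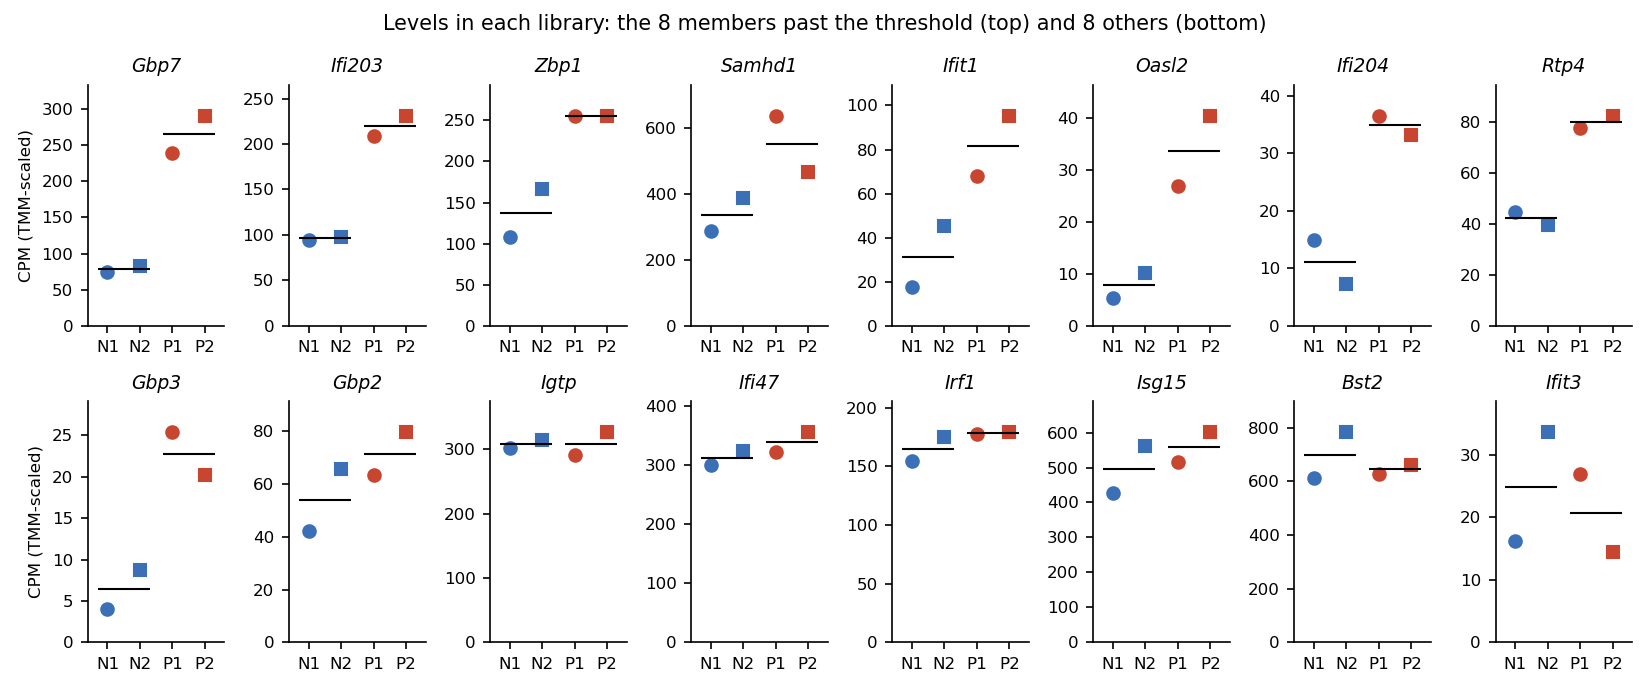
Level in each library (CPM after TMM scaling, axes from 0) of the 8 members past the threshold, in the top row, and of 8 other members in the bottom row; circles and squares are replicates 1 and 2, blue is Il10-EGFP-, red is Il10-EGFP+ and lines are means. In the top row both red points lie above both blue points in every panel, while Gbp2, Igtp, Ifi47, Isg15, Bst2 and Ifit3 in the bottom row overlap.

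Among the 41 classical type I response genes, 7 passed the threshold and 5 of these were nucleic acid sensors or enzymes that act on RNA or DNA. The 9 members of that group were all above 0, with 0.71 as their median log2 fold change. Its summed level was 730 and 897 CPM in N1 and N2 and 1491 and 1321 CPM in P1 and P2. Over the 41 genes together the median log2 fold change was 0.42, with 36 above 0. Genes of like function outside the members went both ways, and those named here did not pass. Oas2 and Eif2ak2 had log2 fold changes of 1.25 and 0.53, and Oas3 and Pnpt1 had -0.37 and -0.47.

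The Ifi200 genes encode proteins with DNA-binding HIN domains, some of which sense cytosolic DNA. Ifi203 had 70 and 67 counts in N1 and N2 and 132 and 160 in P1 and P2. Both Il10-EGFP+ libraries lay above both others with little spread within a population, and the level rose from 96.4 ± 1.94 to 220 ± 15.3 CPM, or 2.28-fold (log2 fold change 1.19 ± 0.19, edgeR adjusted p = 2.9e-05). Its exons overlap those of Mndal, a related gene on the same strand that rose by a similar amount, from 75 and 84 to 127 and 160 counts (log2 fold change 0.95 ± 0.19, edgeR adjusted p = 0.000724). Ifi204 had 11 and 5 counts in N1 and N2 and 23 in each of P1 and P2 (log2 fold change 1.62 ± 0.48, edgeR adjusted p = 0.0370), and it no longer passed without N2 (log2 fold change 1.21), P1 (1.55) or P2 (1.68). Ifi209 had 79 and 100 counts against 126 and 121 (edgeR adjusted p = 0.0877), and 224 of the 351 stretches at its end occur also in Ifi214. Over the 7 Ifi200 genes of the member and pathway lists, all 7 were higher in P1 and P2 than in N1 and N2, and 4 passed the threshold. The shares over all genes tested were 22.3% and 2.35%. Of the 4, Ifi208 had an edgeR adjusted p of 0.0492. Of the stretches at the end of Ifi208, 95 of 702 occur also in Ifi213, and 43 of 703 at the end of Mndal occur in Ifi203. The 7 counts are therefore not fully separate.

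Zbp1, a sensor of left-handed nucleic acid that can trigger necroptosis, had 80 and 114 counts in N1 and N2 and 161 and 177 in P1 and P2. P1 and P2 lay at the same level of 255 CPM after scaling, and N2 lay between them and N1 (log2 fold change 0.90 ± 0.19, edgeR adjusted p = 0.00105). Samhd1, a dNTP hydrolase that restricts retroviruses, had 212 and 265 counts in N1 and N2 and 402 and 324 in P1 and P2. The populations did not overlap, with N2 and P2 nearest to each other (1.64-fold, log2 fold change 0.71 ± 0.15, edgeR adjusted p = 0.00213). Oasl2, an oligoadenylate synthetase-like protein, had 4 and 7 counts in N1 and N2 and 17 and 28 in P1 and P2. It had the largest fold change of the 8 members past the threshold and few counts to support it (4.29-fold, log2 fold change 2.10 ± 0.52, edgeR adjusted p = 0.00948). Zbp1 did not pass without N1 (log2 fold change 0.62), Samhd1 without N1 (0.51) or P1 (0.48), and Oasl2 without N1 (1.71) or P2 (1.77). The sensor Ifih1 (MDA5), the exonuclease Isg20 and the RNA-editing enzyme Adar did not pass, with log2 fold changes of 0.54, 0.69 and 0.12.

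Of the 13 other antiviral effectors, Ifit1 and Rtp4 passed. Ifit1, which binds viral RNA lacking the host cap methylation, had 13 and 31 counts in N1 and N2 and 43 and 66 in P1 and P2. The populations did not overlap, yet N2 lay nearer to P1 than to N1 (31.4 ± 19.5 against 81.7 ± 19.1 CPM, log2 fold change 1.39 ± 0.32, edgeR adjusted p = 0.00463). The log2 fold change was 0.86 without N1 and 1.13 without P2, where it did not pass, and 2.21 without N2. Its neighbour Ifit3, which forms a complex with IFIT1, had 12 and 23 counts against 17 and 10, and its populations overlapped (log2 fold change -0.27 ± 0.46). Of the 351 stretches at the end of Ifit3, 67 occur also in Ifit3b, so its reads may be shared.

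Rtp4, an interferon-induced chaperone of membrane receptors, had 33 and 27 counts in N1 and N2 and 49 and 57 in P1 and P2 (log2 fold change 0.92 ± 0.28, edgeR adjusted p = 0.0491). It stood just inside the threshold, and it did not pass in any fit that left out a library, where its log2 fold change lay between 0.84 and 1.02. Herc6, the mouse E3 ligase for ISG15, stood just outside, with 20 and 25 counts in N1 and N2 and 48 and 35 in P1 and P2 (log2 fold change 0.99 ± 0.33, edgeR adjusted p = 0.0741). Gbp3, Ifi209, Gbp4 and Parp9 followed between 0.0774 and 0.0983. With a replicate block in the fit, Herc6 and Ifi209 passed.

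**Figure D4:**
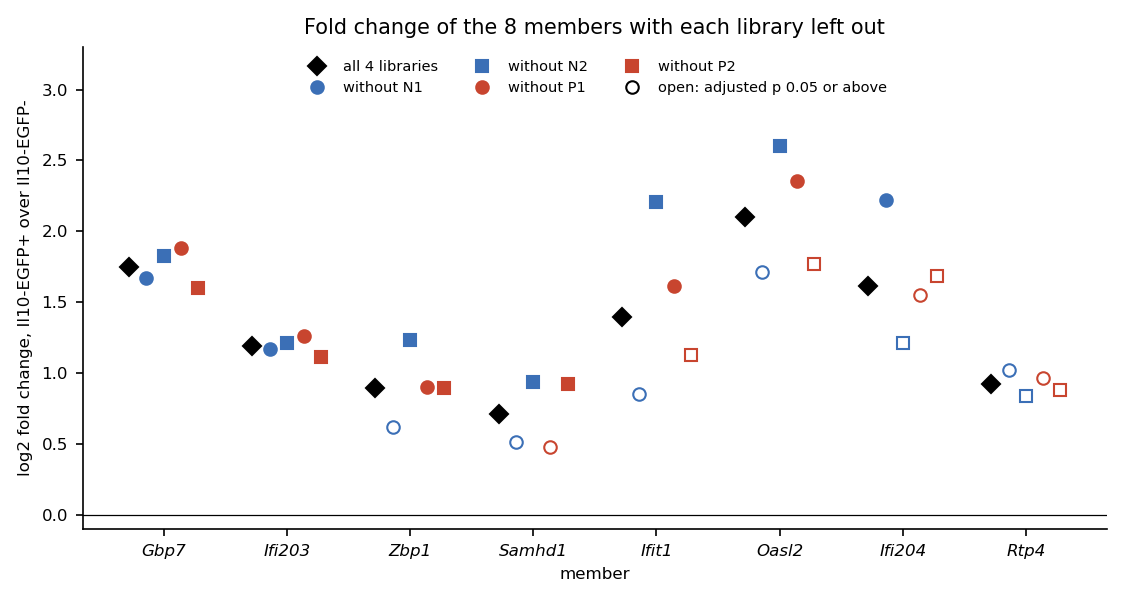
Log2 fold change of the 8 members past the threshold with all 4 libraries (diamonds) and with each library left out in turn (blue, an Il10-EGFP- library; red, an Il10-EGFP+ library; circles, replicate 1; squares, replicate 2); open symbols have an edgeR adjusted p of 0.05 or above. All values lie above 0, those of Gbp7 and Ifi203 lie close together and stay filled, and those of Ifit1 run from 0.86 to 2.21.

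Several widely used interferon-stimulated genes showed overlapping populations. Isg15, the ubiquitin-like modifier, had 315 and 385 counts in N1 and N2 and 325 and 416 in P1 and P2, or 495 ± 94.9 against 558 ± 60.2 CPM (log2 fold change 0.18 ± 0.14, edgeR adjusted p = 0.628). Bst2 (tetherin), which holds budding virus at the membrane, had 451 and 536 counts against 397 and 458 (log2 fold change -0.11 ± 0.14). For both genes N1 and N2 differed by more than the population means. Shisa5, a membrane protein of the endoplasmic reticulum, and Slfn2, which maintains T cell quiescence, had log2 fold changes of -0.13 ± 0.13 and -0.11 ± 0.16. Mx1, an antiviral dynamin-like GTPase, had 12 and 10 counts in each population.

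Ly6a and Ly6e encode small lipid-anchored surface proteins, and Ly6a is the stem cell antigen Sca-1. Ly6a had 915 and 1074 counts in N1 and N2 and 1033 and 1119 in P1 and P2 (log2 fold change 0.21 ± 0.12, edgeR adjusted p = 0.433). Ly6e had a log2 fold change of 0.30 ± 0.14 (edgeR adjusted p = 0.273). In both genes the Il10-EGFP+ libraries lay above the Il10-EGFP- libraries by less than the threshold required. The nuclear body protein Sp110 had a log2 fold change of -0.12 ± 0.31, and the related Sp100 had 0.37 ± 0.16.

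The mono-ADP-ribosyltransferases and their partner Dtx3l numbered 5, and all had fold changes above 0 with none past the threshold. Their summed level was 243 and 238 CPM in N1 and N2 and 320 and 345 CPM in P1 and P2. Parp9 had 53 and 52 counts against 65 and 90 (edgeR adjusted p = 0.0983). It overlaps Dtx3l on the opposite strand, and whether the counting used strand is not given in the sources used here. Parp10, singled out after its value was seen, had the largest log2 fold change of all members, 2.42 ± 0.94, from 3 counts in the Il10-EGFP- and 16 in the Il10-EGFP+ libraries, a ratio of 5.72 with an exact 95% interval from 1.64 to 30.7 for counting error alone.

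**Figure D5:**
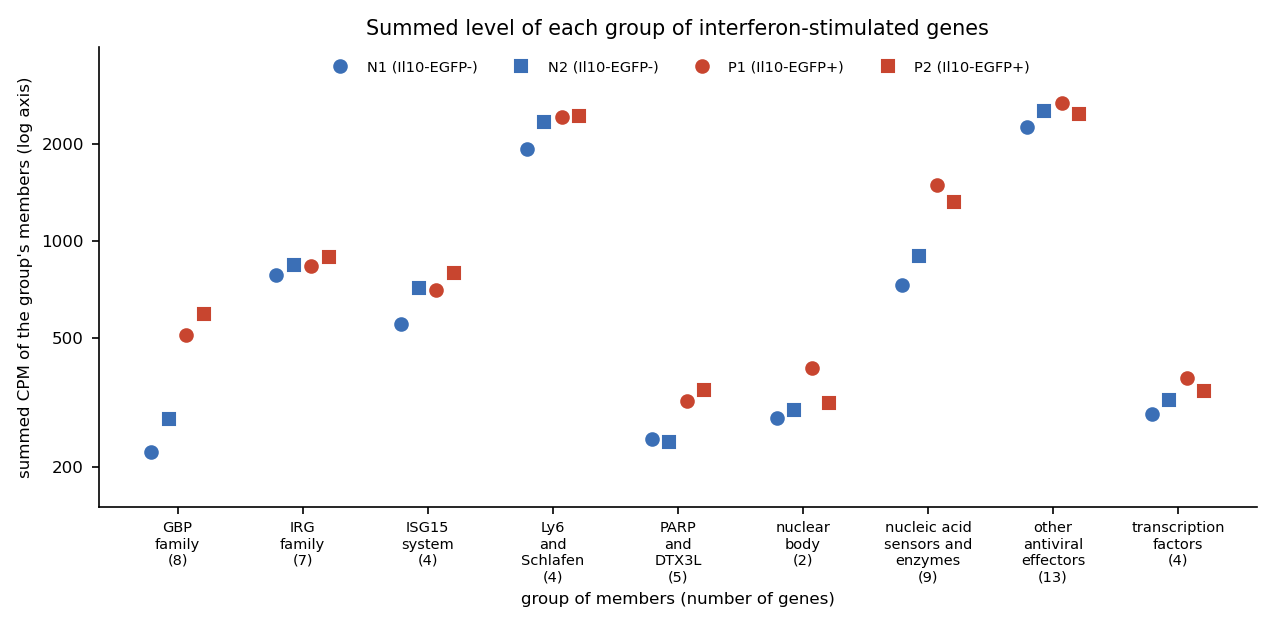
Summed level of the members of each group in each library (CPM after TMM scaling, log axis), with the number of genes under each group; blue is Il10-EGFP- and red is Il10-EGFP+. The GBP family (221 and 282 against 513 and 593 CPM) and the nucleic acid sensors and enzymes (730 and 897 against 1491 and 1321 CPM) show the widest gaps, and the IRG family, the ISG15 system and the other antiviral effectors overlap.

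The transcription factors among the members did not pass the threshold. Irf1, a factor upstream of many GBP genes, had 114 and 120 counts in N1 and N2 and 112 and 124 in P1 and P2 (log2 fold change 0.11 ± 0.18, edgeR adjusted p = 0.861). Irf7, the amplifier of type I interferon production, had a log2 fold change of 0.67 ± 0.40. It overlaps Phrf1 on the opposite strand. Irf9 and Stat2, subunits of the complex that binds the ISRE, had 0.30 ± 0.25 and 0.27 ± 0.31, with overlapping populations in both.

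Of the genes around the members, 7 receptor and ligand genes were tested and 1 passed. Ifngr1, the ligand-binding chain of the IFNγ receptor, had 31 and 44 counts in N1 and N2 and 69 and 60 in P1 and P2, with both Il10-EGFP+ libraries higher (log2 fold change 0.88 ± 0.26, edgeR adjusted p = 0.0406), and it did not pass without N1 (log2 fold change 0.60) or P1 (0.71). Ifngr2, the signalling chain, had 3 counts in N2 and 0 in the other libraries and was not tested. Ifng itself had 8 counts in N1, N2 and P1 and 7 in P2 (log2 fold change 0.01 ± 0.64), a depth at which a moderate difference was not detectable. The type I receptor chains Ifnar1 and Ifnar2 had log2 fold changes of 0.53 ± 0.62 and -0.02 ± 0.28.

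Among 12 tested kinases, STATs and regulators, Irf8, a factor of the IRF family, was lower, with 140 and 147 counts in N1 and N2 and 80 and 93 in P1 and P2 (log2 fold change -0.63 ± 0.19, edgeR adjusted p = 0.0384). None of 7 inhibitors passed by edgeR's test, with 2 at an unadjusted p under 0.05, 1 in each direction, and 0 by DESeq2. Of 47 further interferon-induced genes tested, 6 were higher and 1 was lower. The higher genes were Mndal and Ifi208 (Ifi200 family), Trim12c and Trim30d (tripartite-motif proteins), Ifi30 (a lysosomal thiol reductase) and Ms4a4b (a T cell membrane protein), with log2 fold changes between 0.49 and 1.36. The lower gene was Cd274, the checkpoint ligand PD-L1, which had 25 and 20 counts in N1 and N2 and 3 and 8 in P1 and P2 (log2 fold change -1.91 ± 0.52, edgeR adjusted p = 0.0224). The count of pathway genes past the threshold, 9, became 2 without N1, 6 without N2, 5 without P1, 3 without P2 and 1 by DESeq2. Of these 9 genes, Mndal alone passed in each of those fits. Cd274 did not pass without N1 (log2 fold change -1.80) or P1 (-1.44), and Irf8 passed in none of the fits that left out a library.

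Some genes of other cell types differed between the populations. The T cell markers were present throughout, with all 10 tested and a summed level between 3928 and 4132 CPM in Il10-EGFP- and between 4423 and 4793 CPM in Il10-EGFP+ libraries. Of these 10, 1 was higher (Trac, log2 fold change 0.59 ± 0.14, edgeR adjusted p = 0.00449). At an unadjusted edgeR p under 0.05, 4 were higher and 0 lower. Of 8 B cell and plasma cell markers tested, 3 were higher in Il10-EGFP+ T cells, and the summed level of that list was 119 and 200 CPM in N1 and N2 and 456 and 524 CPM in P1 and P2. These were the immunoglobulin genes Ighm, Igkc (6 and 18 against 81 and 116 counts) and Jchain (0 and 0 against 15 and 16 counts), whereas Cd79a had 2 counts in N1 and 0 elsewhere. The myeloid list summed to 71.9 and 107 CPM in N1 and N2 and 345 and 140 CPM in P1 and P2, with 2 of 8 tested genes higher (Lyz2 and S100a8) and 6 of 8 higher at an unadjusted p under 0.05. Tyrobp had 3 and 3 counts in N1 and N2 and 17 and 7 in P1 and P2, Fcer1g had 5 and 1 against 12 and 9, and Csf1r had 0 and 1 against 11 and 1. Adgre1, the macrophage marker F4/80, was at 0 in all libraries. The part of these cells in the interferon-stimulated genes was not tested.

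Of the plasmacytoid dendritic cell list, known producers of type I interferon, Siglech, Cox6a2 and Klk1 were at 0 in all libraries, and the list summed to 231 and 257 CPM in N1 and N2 and 217 and 198 CPM in P1 and P2. Irf8 made up most of that sum, and without it the list summed to 40.7 and 42.3 CPM in N1 and N2 and 90.3 and 63.5 CPM in P1 and P2. Of its 5 tested genes, Ccr9 was higher and Irf8 lower, and activated T cells can express both. For CD8 T and NK cells, Ncr1 was at 0 in all libraries. The sums were 51.6 and 90.5 CPM in N1 and N2 and 95.1 and 114 CPM in P1 and P2. Of 5 tested genes, 2 had fold changes above 0 and 3 below, and 1 passed as higher (Gzma). Cd8a had 4 and 10 counts in N1 and N2 and 3 and 3 in P1 and P2. Cd8b1 had 18 and 17 against 7 and 13. The regulatory T cell list summed to 581 and 639 CPM in N1 and N2 and 738 and 750 CPM in P1 and P2, with 1 of 6 genes higher (Ctla4), and Foxp3 had 10 and 6 counts against 6 and 1. The part of these cells in the members' differences was not tested either.

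N1 was the lower of the Il10-EGFP- libraries for most members. N2 lay above N1 in 75.0% of the 56 members, where it did so in 51.0% of all genes tested, and P2 lay above P1 in 55.4% of members and 49.4% of all genes tested. Among the GBP and IRG genes N2 lay above N1 in 86.7%. Without N2 the median log2 fold change of the members was 0.72 and 52 of 56 were above 0. Without N1 the median was 0.38 and 44 of 56 were above 0, and Zbp1, Oasl2, Samhd1, Ifit1 and Rtp4 no longer passed.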

How the data were processed

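RNA from sorted splenic CD4+ Nr4a3-Timer+ T cells was sequenced as 3′ tag libraries (QuantSeq FWD, 5 ng input) from 4 samples, and groups were taken from the sample titles. The authors aligned reads to GRCm38 with STAR 2.5.2a and counted them with HTSeq 0.6.0; the strand setting, the annotation release and whether molecular identifiers were collapsed before counting are not given in the sources used here. The protocol and the labels name different RNA kits. The deposited count table holds raw counts for 47643 gene identifiers, 419 of them without a symbol. The deposited rlog table holds log2-scale values that the authors made with DESeq2 from genes with at least 10 reads; it set the membership and served 1 alternative. A further replicate pair, which the authors left out as an outlier, was not analysed here.

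The 9608 genes whose counts reached 10 when the 4 libraries were added were fitted with edgeR 4.0.16 (TMM, population as the only term, glmQLFit and glmQLFTest) in R 4.3.3, with Benjamini-Hochberg adjustment over all of them. The script was tested on simulated data. Alternatives used DESeq2 1.42.0, limma 3.58.1, other scalings and filters, a replicate block, each library left out and a threshold of 0.1. Exact intervals (95%) cover counting error only. The paper speaks of a biological replicate pair, so an equal number may mark 1 mouse, but no label says so. Same-numbered libraries did not deviate together (correlation 0.0177 over 6781 genes). At this depth counting error can hide a shared deviation, so the correlation cannot decide whether the numbers are pairs. The main fit left them unpaired, and a replicate block gave 10 members in place of 8. Stretches of 50 bases from the last 400 bases of transcripts were compared between genes. Named were the members past the threshold, in each family the 5 largest and 5 smallest fold changes and the 5 highest levels among members with a mean of at least 10 counts, fixed interferon receptor and regulator genes, pathway genes past the threshold and genes that may share reads. The members and lists were chosen with earlier results of these data known.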

Additional observations from a re-analysis of the deposited data

How the results depend on the processing

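No member was called lower in any fit. The count of members called, 8, was 4 with DESeq2's Wald test, between 3 and 8 with a library left out, and 13 at an adjusted p under 0.1. For all genes the count of 393 became 115 with DESeq2 (20 members had no adjusted p there), between 201 and 264 with a library left out and 622 at the looser threshold. The 9 pathway genes became 1 with DESeq2 and between 2 and 6 with a library left out. The median log2 fold change of the GBP and IRG GTPases, 0.75, was 0.43 with edgeR's expression filter, which dropped low-count members, 0.077 with limma on the rlog values, which are shrunken by construction, and between 0.35 and 0.88 with a library left out. That of the classical genes, 0.42, was 0.12 on the rlog values and between 0.35 and 0.65 with a library left out. With a replicate block 10 members were called, Herc6 and Ifi209 in addition to the 8, and 560 genes in all. Library size alone, or no count filter, lost Rtp4 (adjusted p = 0.0617 and 0.0638). The causes of the other differences were not tested. Depth limited the members with few counts, such as Gbp3, Gbp6, Tgtp1, Tgtp2 and Parp10.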
